A study of Mus musculus with 6 samples.

Results

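The laminins, nidogens and basement membrane proteoglycans were taken as 10 genes chosen by name, Lama2, Lama4, Lama5, Lamb1, Lamb2, Lamc1, Nid1, Nid2, Hspg2 and Agrn, of the 53801 genes counted in PDPN+PDGFRα+ stromal cells of MO5 melanomas. All 10 were found in the count table and all 10 had enough counts to be tested, with between 210 and 19961 counts per gene and library. MO5 tumors grow from B16-OVA melanoma cells placed under the skin of C57Bl/6 mice, here aged 8 to 12 weeks at implantation. The DTR group were ADAM12-DTR mice, which carry a bacterial artificial chromosome transgene (tTA-Ires-DTR) with the diphtheria toxin receptor under the Adam12 promoter, and the Ctrl group were sex-matched littermates without the transgene. Mice of both groups received diphtheria toxin, so the groups differ in the receptor and not in the toxin. Each group had 3 libraries of CD45-CD31-PDPN+PDGFRα+ cells. The toxin acts on cells that express the Adam12 promoter, whereas the sort takes the whole PDPN+PDGFRα+ gate. For the DTR and Ctrl groups of the figure that shows these cells, the paper names toxin from day 10, without restating the day for the libraries. Whether a library holds 1 animal or several is not given in the sources used here. P-values below therefore measure the spread between these libraries, which may be partly technical.

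A basement membrane is a thin sheet of extracellular matrix under epithelia and endothelia and around muscle fibers, fat cells, pericytes and peripheral nerves. Laminins, trimers of an α, a β and a γ chain, bind integrins and dystroglycan at the cell surface and polymerize into a network. Nidogens join this network to that of collagen IV, and the heparan sulfate proteoglycans perlecan and agrin bind the network, growth factors and cell surface receptors. Fibroblasts and mural cells supply part of the basement membrane of neighboring vessels and epithelia.

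The libraries held between 22339635 and 34271929 counts on genes. Values are given in CPM, a gene's counts scaled to the TMM-adjusted total of its library, and 3 counts correspond to between 0.0873 and 0.132 CPM, a floor for counting error only. Adam12 itself was at 216, 181 and 175 CPM in Ctrl replicates 1 to 3 and at 165, 151 and 112 in DTR replicates 1 to 3, a log2 fold change (DTR over Ctrl) of -0.42 with a standard error of 0.154. The groups did not overlap for Adam12, and the adjusted p (edgeR's quasi-likelihood test, Benjamini-Hochberg method) was 0.602. The sorting markers Pdgfra and Pdpn overlapped between the groups, with log2 fold changes of 0.29 and 0.37. The 10 fibroblast markers together reached between 5324 and 14302 CPM per library. The 10 melanoma markers reached between 16000 and 20004 CPM, and Dct, a melanin synthesis enzyme, alone was at 5751 to 7580 CPM. The labelled cell type was therefore present beside transcripts of tumor cells, and a member's counts cannot be assigned to 1 cell type. In such bulk libraries, fewer cells of a type and less RNA per cell cannot be told apart.

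No member passed the test between DTR and Ctrl, 0 of 10 at an adjusted p under 0.05 by edgeR's quasi-likelihood test, against 0.0% of all 15133 genes tested. At an unadjusted p under 0.05 there was 1 of 10, Agrn, against 7.92% of all genes. DESeq2's Wald test also called 0 of 10 members, against 0.173% of all genes, and gave 0 members an unadjusted p under 0.05, against 4.89%. Adjusted p-values of the members ran from 0.602 to 0.940 by edgeR's quasi-likelihood test and from 0.729 to 0.991 by DESeq2. The median log2 fold change of the members was 0.20, and that of all genes tested was -0.0029. In 7 members the log2 fold change was above 0, as in 49.6% of all genes. Without DTR replicate 3, the median of the members was -0.11 and 4 members were above 0. Leaving out each library in turn gave medians from -0.11 to 0.40.

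**Figure D1:**
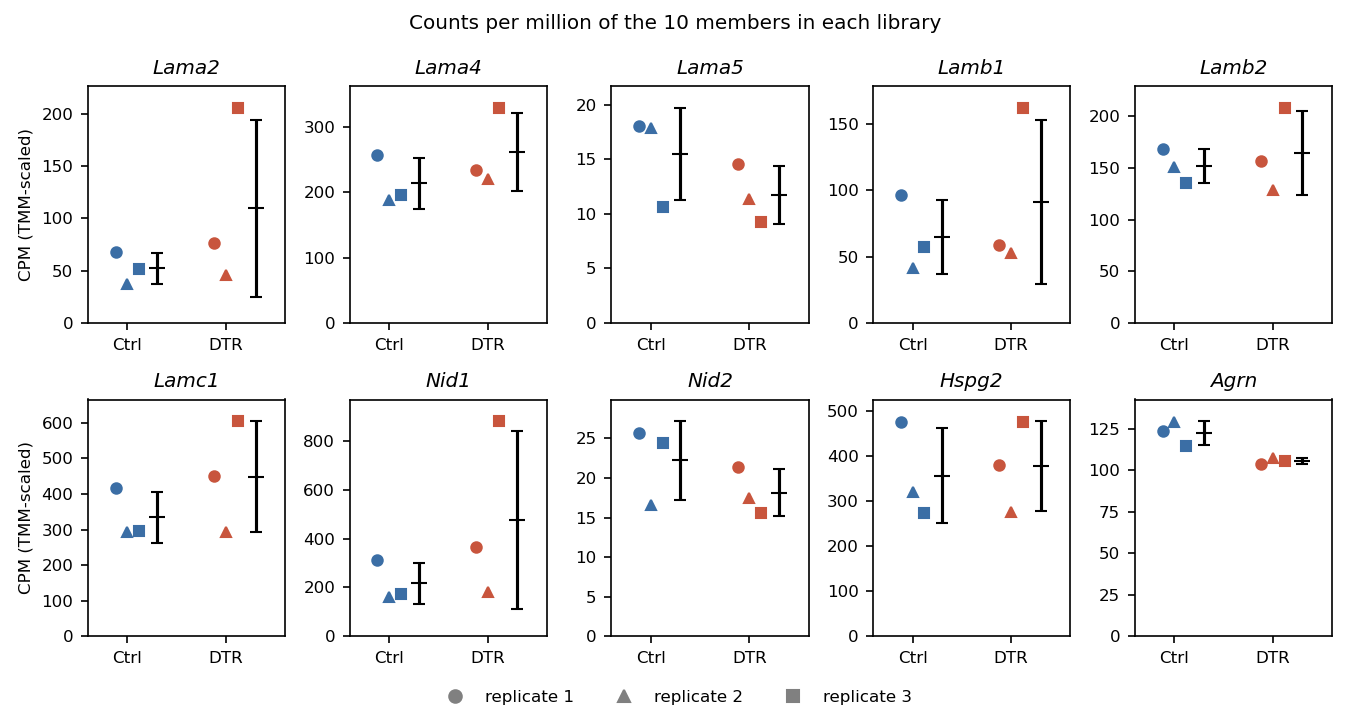
CPM (vertical axes, TMM-scaled) of the 10 members in each of the 6 libraries, with Ctrl in blue, DTR in red, a symbol for each replicate number, and the mean and SD of the 3 libraries of a group as a bar to the right. DTR replicate 3 stands highest for 7 members, by most for Lama2 and Nid1, and the groups are apart only for Agrn.

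Promoter sequence is shown for the 2 members with the largest log2 fold changes, Nid1 and Lama2, for Lamb1, which varied with them, and for Agrn, which did not. The windows are the 250 bases before the RefSeq start on GRCm38.p6, without bases that GENCODE annotates as exon, and 7 of the 10 members had a RefSeq start in the table used. Sequences run 5′ to 3′ on the gene's strand. Capitals mark GC boxes, GGGCGG on either strand, overlapping matches merged. Nid1 is at chr13:13437352-13437550 (plus strand), Lama2 at chr10:27616943-27617192 (minus strand), Lamb1 at chr12:31265043-31265233 (plus strand) and Agrn at chr4:156197489-156197738 (minus strand).
Nid1: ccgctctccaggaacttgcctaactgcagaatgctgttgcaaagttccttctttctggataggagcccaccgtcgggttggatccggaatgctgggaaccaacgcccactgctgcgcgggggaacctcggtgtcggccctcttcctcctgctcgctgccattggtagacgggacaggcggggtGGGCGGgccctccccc
Lama2: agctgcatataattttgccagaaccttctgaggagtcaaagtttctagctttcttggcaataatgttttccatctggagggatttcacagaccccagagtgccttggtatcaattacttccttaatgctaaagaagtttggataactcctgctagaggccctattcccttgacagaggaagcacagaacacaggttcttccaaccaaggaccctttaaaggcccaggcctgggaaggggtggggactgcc
Lamb1: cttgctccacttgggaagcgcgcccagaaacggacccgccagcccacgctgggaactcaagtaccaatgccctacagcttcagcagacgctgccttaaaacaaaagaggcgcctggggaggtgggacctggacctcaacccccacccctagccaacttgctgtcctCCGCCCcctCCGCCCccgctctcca
Agrn: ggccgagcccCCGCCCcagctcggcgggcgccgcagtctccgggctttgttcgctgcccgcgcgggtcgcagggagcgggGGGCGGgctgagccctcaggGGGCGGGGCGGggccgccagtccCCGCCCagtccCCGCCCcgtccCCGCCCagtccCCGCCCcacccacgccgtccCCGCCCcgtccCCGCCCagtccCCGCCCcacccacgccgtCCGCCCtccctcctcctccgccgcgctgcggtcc

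In the full window of 250 bases, Agrn had 12 GC boxes, Hspg2 had 5, Lama5 had 4, Lamb1 had 2 and Nid1 had 1, while none was found for Lama2 and Lamb2. Of the 7 members with a window, 5 held a GC box, against 32.7% of the 32817 promoter windows in the table. The base composition ran from 43.6% G and C for Lamb2 to 83.6% for Agrn, and the median of all windows was 52.4%. The RefSeq start of Lama2 lies 2816 bases inside the gene as GENCODE annotates it, so the window before that start is also inside the gene. The letters TATAAA were on neither strand of any of the 7 windows, against 12.4% of all windows. The letters CANNTG (an E box) were in 4 of 7, against 66.2%. These matches describe the letters only.

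The laminin α chains differ in the receptors that they bind and in the tissues that they serve. Lama2, on chromosome 10 of GRCm38 from 26980036 to 27619758 (minus strand), encodes the α2 chain of muscle and peripheral nerve, whose loss causes a congenital muscular dystrophy. It was at 67.5, 37.4 and 51.5 CPM in Ctrl replicates 1 to 3 and at 76.6, 46.2 and 206 CPM in DTR replicates 1 to 3. DTR replicate 3 was 2.69 times the next highest library, and the other DTR libraries lay within or just above the Ctrl range. The group means were 52.1 ± 15.1 and 109.7 ± 84.9 CPM (SD, n = 3 each). The log2 fold change was 1.07 with a standard error of 0.499 and a 95% interval from -0.08 to 2.22, with adjusted p = 0.630 by edgeR's quasi-likelihood test. Without DTR replicate 3 it was 0.24.

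Lama4, also on chromosome 10, from 38965515 to 39110188 (plus strand), encodes the α4 chain, which is found around blood vessels and in other mesenchymal tissue. Its levels were 258, 188 and 195 CPM in Ctrl and 234, 221 and 330.1 CPM in DTR. The groups overlapped, with DTR replicate 3 the highest and Ctrl replicate 2 the lowest library. DTR over Ctrl, the log2 fold change was 0.29 with a standard error of 0.182 (adjusted p = 0.684, edgeR's quasi-likelihood test), and 0.09 without DTR replicate 3.

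Lama5, on chromosome 2 from 180176373 to 180225859 (minus strand), encodes the α5 chain of epithelial and mature vascular basement membranes. It was the scarcest member, at 18.1, 17.8 and 10.6 CPM in Ctrl and 14.5, 11.4 and 9.26 CPM in DTR, and its lowest count was 210, in DTR replicate 3. Here DTR replicate 3 was the lowest library, in contrast to Lama2 and Lama4, and Ctrl replicate 3 lay within the DTR range. A log2 fold change of -0.40 was found, with a standard error of 0.252 (adjusted p = 0.688, edgeR's quasi-likelihood test), and it was -0.26 without DTR replicate 3 and -0.61 without Ctrl replicate 3.

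Of the β chains, Lamb1 encodes β1, the most widespread, and Lamb2 encodes β2, which is characteristic of the neuromuscular junction and the kidney glomerulus. Lamb1, on chromosome 12 from 31265234 to 31329644 (plus strand), was at 96.3, 41.7 and 57.1 CPM in Ctrl and 58.5, 53.1 and 163 CPM in DTR. The remaining DTR libraries lay inside the Ctrl range, and DTR replicate 3 stood at 1.69 times the highest other library. Lamb1 had a log2 fold change of 0.49 with a standard error of 0.464 (adjusted p = 0.791, edgeR's quasi-likelihood test), and it turned to -0.22 without DTR replicate 3.

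Lamb2 is on chromosome 9 from 108479736 to 108490530 (plus strand), at 168, 151 and 135 CPM in Ctrl and 156, 128 and 208 CPM in DTR. The DTR libraries spanned the whole Ctrl range, with a lowest and a highest library both in DTR. Lamb2 had a log2 fold change of 0.12 with a standard error of 0.174, and it turned to -0.092 without DTR replicate 3.

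Lamc1, on chromosome 1 from 153218922 to 153332786 (minus strand), encodes γ1, the chain shared by most laminin trimers and the one that nidogens bind. It was at 417, 292 and 295 CPM in Ctrl and 450.4, 292 and 604 CPM in DTR. DTR replicates 1 and 3 were the highest libraries, while DTR replicate 2 was level with Ctrl replicates 2 and 3. For Lamc1 the log2 fold change was 0.42 with a standard error of 0.256 (adjusted p = 0.678, edgeR's quasi-likelihood test), and 0.15 without DTR replicate 3.

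Nid1 and Nid2 encode nidogen 1 and nidogen 2, which bridge laminin γ1 and collagen IV and can stand in for each other in mice. Nid1, on chromosome 13 from 13437551 to 13512269 (plus strand), was at 313, 163 and 174 CPM in Ctrl and 366, 180.2 and 880.4 CPM in DTR. DTR replicate 3 was 2.41 times the next highest library, DTR replicate 1 was the second highest, and DTR replicate 2 lay within the Ctrl range. The means were 216.5 ± 83.4 CPM in Ctrl and 475.5 ± 362.8 CPM in DTR (SD, n = 3 each). The log2 fold change was 1.13 with a standard error of 0.524 and a 95% interval from -0.08 to 2.35, with adjusted p = 0.630 by edgeR's quasi-likelihood test. It was 0.33 without DTR replicate 3.

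Nid2, on chromosome 14 from 19751265 to 19811787 (plus strand), overlaps Rtraf, a gene on the opposite strand, and the counting by strand separates their reads. It does not separate genes on the same strand, which overlap Lama2 (Gm36962), Lamc1 (Gm38009), Lama5 (Mir7005) and Hspg2 (Mir7018). The part of these overlaps in the counts was not tested. Nid2 was at 25.7, 16.5 and 24.4 CPM in Ctrl and 21.4, 17.5 and 15.6 CPM in DTR. Its lowest library was DTR replicate 3, the one that was highest for Nid1, and the groups overlapped. Its log2 fold change was -0.29 with a standard error of 0.199 (adjusted p = 0.708, edgeR's quasi-likelihood test), and it was -0.46 without Ctrl replicate 2 and -0.17 without Ctrl replicate 1.

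The proteoglycans are perlecan, the product of Hspg2, which stores growth factors in the matrix, and agrin, the product of Agrn, which binds laminin and dystroglycan and clusters acetylcholine receptors at the neuromuscular junction. Hspg2, on chromosome 4 from 137468769 to 137570630 (plus strand), was at 477, 320.3 and 274 CPM in Ctrl and 381, 277 and 477 CPM in DTR. Ctrl replicate 1 and DTR replicate 3 were level as the highest libraries. For Hspg2 the log2 fold change was 0.08 with a standard error of 0.245, and it turned to -0.12 without DTR replicate 3, to -0.073 without Ctrl replicate 3 and to -0.045 with an offset for gene span.

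Agrn, on chromosome 4 from 156165290 to 156197488 (minus strand), was the member with the least spread, at 124, 129 and 115 CPM in Ctrl and 104, 107 and 106 CPM in DTR. All DTR libraries were below all Ctrl libraries, which was so for 1 of 10 members and for 8.18% of all genes tested in this direction. The share of counts on mitochondrial genes also separated the groups, at 9.29, 9.84 and 9.90% in Ctrl and 10.7, 13.8 and 12.5% in DTR, and its part in the values of Agrn and of other genes without overlap was not tested. The means were 122.4 ± 7.20 and 105.5 ± 1.78 CPM (SD, n = 3 each). The log2 fold change was -0.21 with a standard error of 0.0806 and a 95% interval from -0.40 to -0.03, and leaving out each library in turn gave -0.26 to -0.18. The unadjusted p was 0.0292 and the adjusted p 0.602 by edgeR's quasi-likelihood test. The two-sided exact permutation test gave p = 0.1, the smallest it can give here, and it gave 0.2 to 0.8 for the other members. On the log2 scale, the SD of Agrn among the DTR libraries was 0.0244, and 1.28% of all genes tested had a lower one.

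DTR replicate 3 was the highest of the 6 libraries for 7 members, Lama2, Lama4, Lamb1, Lamb2, Lamc1, Nid1 and Hspg2, and for 20.9% of all genes tested. For Nid2 and Lama5 it was the lowest, so that it stood at an end of the 6 for 9 of 10 members, against 44.1% of all genes. Ctrl replicate 2 was the lowest library for 5 members. Over the 6 libraries, Pearson's r of log2 CPM between pairs of these 7 members was 0.74 to 0.99, with the highest value for Lamc1 and Nid1, and between them and the remaining 3 members it was -0.54 to 0.16. The 7 were grouped by being highest in DTR replicate 3, so these values largely restate that choice and describe the 6 points only.

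Marker genes of fibroblasts varied between the libraries as well. The summed level of the 10 fibroblast markers was 13790, 5348 and 5324 CPM in Ctrl replicates 1 to 3 and 11034, 5704 and 14302 CPM in DTR replicates 1 to 3. The 9 markers of adventitial fibroblasts, the cells around larger vessels that express Pi16 and Dpp4, summed to 1496, 702 and 941 CPM in Ctrl and to 1666, 730 and 4183 CPM in DTR. The sum in DTR replicate 3 was the highest of both lists, as for the 7 members. The log2 fold change was above 0 for 10 of 10 fibroblast markers (from 0.10 for Col1a1 to 1.02 for Dcn) and for 9 of 9 adventitial markers (from 0.82 for Ly6a to 1.51 for Dpp4), against 49.6% of all genes tested. Without DTR replicate 3, 7 of the 10 fibroblast markers were above 0, with Pdgfra, Col1a1 and Thy1 at -0.026, -0.054 and -0.18 and Dcn at 0.24, and 9 of the 9 adventitial markers, with Ly6a at 0.34 and Dpp4 at 0.47. Col1a1 was at -0.19 without Ctrl replicate 3. Their medians were 0.38 and 1.12, and 0.08 and 0.34 without DTR replicate 3, with 0 genes of either list called by edgeR's quasi-likelihood test or DESeq2. At an unadjusted p under 0.05, 0 fibroblast markers and 2 adventitial markers were higher, against 3.81% of all genes tested. The part of the fibroblast makeup in the members' values was not tested.

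Markers of other cells were counted as well, and except for the melanoma markers their sums were lower than that of the fibroblast markers in each library. The summed endothelial markers were at 27.7 to 35.0 CPM in Ctrl and 34.2 to 101.5 CPM in DTR, from -1.53 for Cdh5 to 1.84 for Tek on the log2 scale. In DTR replicate 3, the highest library, Tek was at 62.9 and Vwf at 21.3 CPM, and both of them and Kdr were higher than in any other library, while Pecam1 at 4.01 CPM lay inside the range of the others and Cdh5 was at 0. With a library left out, Cdh5 ran from -2.53 (without DTR replicate 1) to -0.93 (without Ctrl replicate 3). Emcn, Cldn5, Tie1 and Egfl7 were near or at 0 in all 6 libraries. Of the 6 endothelial markers tested, 5 had a log2 fold change above 0, against 49.6% of all genes tested. At an unadjusted p under 0.05 (edgeR's quasi-likelihood test), 2 were higher, Tek and Vwf, against 3.81% of all genes. The log2 fold change of Tek was 0.42 without DTR replicate 3. For Vwf all DTR libraries were above all Ctrl libraries, as for 6.32% of all genes. The part of endothelial transcripts in the members' values was not tested. Summed mural cell markers were at 56.6 to 98.2 CPM in Ctrl and 44.2 to 59.7 CPM in DTR, with Higd1b at 0 in all libraries, and their log2 fold changes ran from -1.31 for Acta2 to 0.39 for Myh11. With a library left out, Acta2 ran from -1.91 (without DTR replicate 2) to -0.81 (without Ctrl replicate 1), and Myh11 from -0.22 (without DTR replicate 1) to 1.32 (without Ctrl replicate 2). Of the 7 mural markers tested, 6 were below 0, as were 7626 of all 15133 genes. Only 1, Cspg4 (the pericyte antigen NG2), at -1.02, was lower at an unadjusted p under 0.05 (edgeR's quasi-likelihood test) and without overlap. These shares over all genes were 4.11% and 8.18%. The median of the 7 was -0.73, and -0.47 without DTR replicate 3. Markers of Schwann cells summed to 225 to 274 CPM, with log2 fold changes from -0.11 for Mbp to 0.90 for Ngfr, and markers of macrophages to 112 to 183 CPM, from -0.57 for Mrc1 to 0.31 for Adgre1. Markers of adipocytes (Fabp4 at -1.14, Lpl at 0.36), keratinocytes (Dsp at -0.52, Krt10 at 0.46) and skeletal muscle (Mylpf at -0.87, Tnnt3 at 0.50) summed to at most 54.8 CPM in any library. With a library left out, the sign turned for Fabp4 and Dsp, to 0.30 and 0.33 without Ctrl replicate 1, and Adgre1, Lpl, Krt10, Tnnt3, Ngfr and Mbp moved by over 1.5 times. The melanoma markers, from -0.28 for Sox10 to 0.05 for Mlana (-0.033 without Ctrl replicate 1), were at 17111 to 20004 CPM in Ctrl and 16000 to 18847 CPM in DTR.

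**Figure D2:**
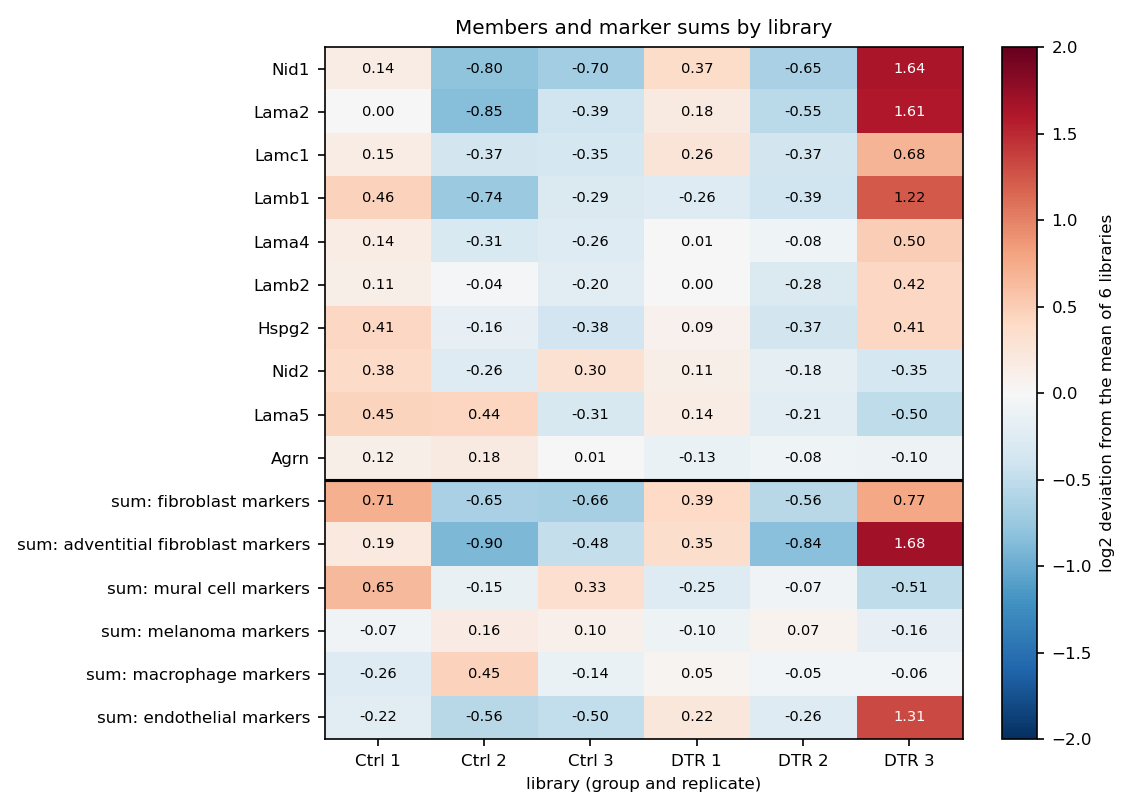
Log2 deviation of each member, and of the summed CPM of 6 marker lists, from its mean over the 6 libraries (color and printed value), with libraries in columns. DTR replicate 3 is highest for 7 members and for the fibroblast, adventitial fibroblast and endothelial sums, and lowest for Nid2, Lama5 and the mural cell and melanoma sums.

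Levels were compared between members per length, as CPM per kilobase of annotated exon. In Ctrl, the order was Lamc1 (40.5 ± 8.66, SD, n = 3, as for the following), Nid1 (31.2 ± 12.01), Hspg2 (25.0 ± 7.41), Lamb2 (24.9 ± 2.72), Lama4 (17.7 ± 3.19), Agrn (13.2 ± 0.776), Lamb1 (6.56 ± 2.84), Nid2 (4.29 ± 0.959), Lama2 (3.19 ± 0.925) and Lama5 (1.36 ± 0.373). Neighbors from Lamc1 down to Lamb2 overlapped in their Ctrl libraries, as did those from Lamb1 down to Lama2. Lamb2 and Lama4, Lama4 and Agrn, Agrn and Lamb1, and Lama2 and Lama5 were apart. The γ1 chain was above 94.7% of all tested genes with a length, Hspg2 above 90.1%, Lama2 above 45.9% and Lama5 above 30.7%. In DTR, the mean of Nid1 (68.5 ± 52.2) was above that of Lamc1 (54.2 ± 18.9) through DTR replicate 3, and Lamc1 was above Nid1 in the 5 other libraries. Means of Lamb2 and Hspg2, and of Lama2 and Nid2, also stood in the opposite order in DTR, within their spread. With the length of the longest transcript in place of all exons, the Ctrl levels of Lama4, Lamb1 and Lama2 came to 35.4, 11.2 and 5.42, and Lama4 moved up to follow Nid1. Lama2 then stood above Nid2 (4.56), and Lamb2 (26.9) above Hspg2 (25.2).

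Within each class, 1 gene supplied most of the level per kilobase. Among the α chains Lama4 held 79.6 ± 0.670% in Ctrl and 75.4 ± 7.87% in DTR (SD, n = 3 each). Lama2 held 14.2 ± 2.11% and 20.7 ± 9.28%, with 30.9% in DTR replicate 3, and Lama5 held 6.16 ± 1.76% and 3.85 ± 1.62%, with 1.99% in that library. Lamb2 held 79.7 ± 5.75% of the β chains in Ctrl and 76.2 ± 7.49% in DTR. Nid2 held 12.6 ± 2.98% of the nidogens in Ctrl and 7.04 ± 4.60% in DTR, and 2.32% in DTR replicate 3. Agrn held 35.3 ± 5.88% of the proteoglycan level in Ctrl and 30.8 ± 6.04% in DTR.

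**Figure D3:**
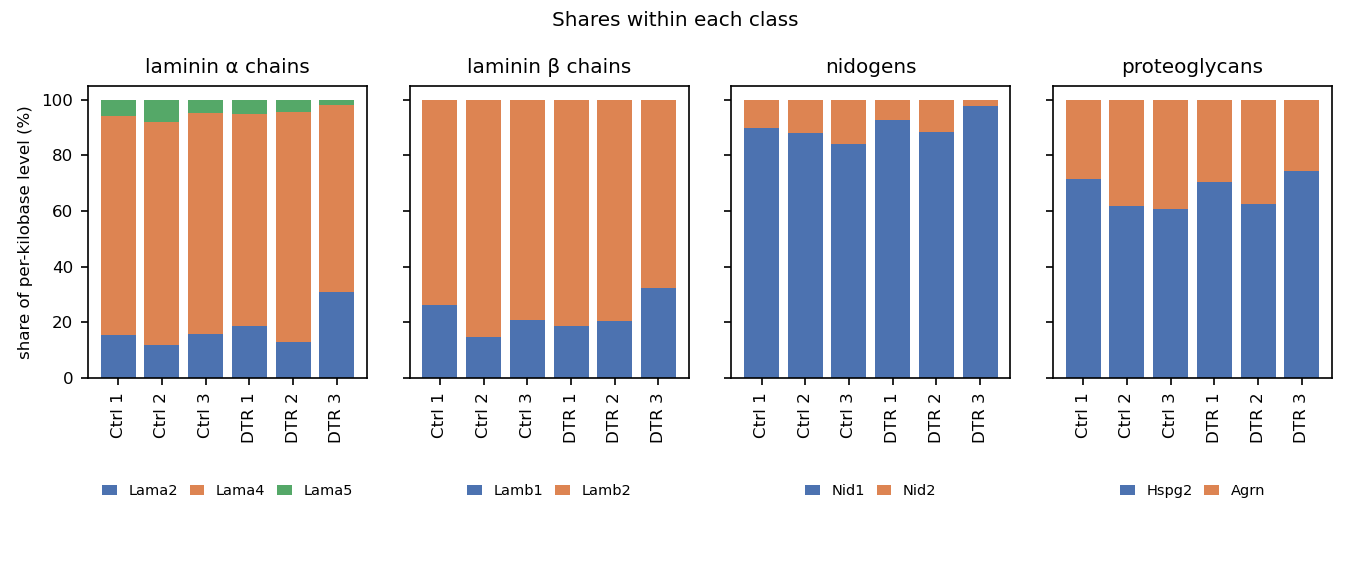
Share of each gene in the summed level per kilobase of its class (vertical axis, percent) in each library, for the laminin α chains, the laminin β chains, the nidogens and the proteoglycans. Lama4, Lamb2, Nid1 and Hspg2 hold the largest share in all 6 libraries, and DTR replicate 3 has the largest shares of Lama2, Lamb1, Nid1 and Hspg2.

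Ratios within a library, which need no scaling, were compared for 6 pairs of genes, and all 6 overlapped between the groups. The largest differences were in Lama2 to Lama5 (1.21 on the log2 scale, DTR minus Ctrl) and Nid2 to Nid1 (-1.18). Per kilobase of exon, Lama2 was at 2.61, 1.46 and 3.39 times Lama5 in Ctrl and 3.67, 2.83 and 15.5 times in DTR, with DTR replicate 2 inside the Ctrl range. Both ratios gave p = 0.2 by the two-sided exact permutation test and 0.4 after Benjamini-Hochberg adjustment over the 6 ratios, and without DTR replicate 3 the differences were 0.46 and -0.48. Lama5 to Lama4 differed by -0.67 with the same p, and by -0.33 without that library. Lama2 to Lama4 differed by 0.55 (0.13 without DTR replicate 3) and Agrn to Hspg2 by -0.30 (-0.12), both with p = 0.4 by the same exact test. Lamb2 to Lamb1 differed by -0.29 (p = 0.7, exact permutation test), and by 0.041 without DTR replicate 3.

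Of 69 further basement membrane genes, in 6 lists, 61 were tested. None passed the threshold by edgeR's quasi-likelihood test, while 5 were lower and 4 higher at an unadjusted p under 0.05, against 4.11% and 3.81% of all genes tested. Their median log2 fold change was -0.04, with 34 below and 27 above 0. In 6 genes all DTR libraries were below all Ctrl libraries and in 6 they were above, against 8.18% and 6.32% of all genes. DESeq2 called 1 of them, Ext1.

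Of the 5 other laminin chain genes, Lama1 had 0 counts in all libraries and Lama3 had at most 53 counts in a library, too few to be tested. The lowest log2 fold change of the tested chains was -0.78, for Lamc3. This gene of the γ3 chain was at 3.47, 6.24 and 4.85 CPM in Ctrl and 2.73, 2.83 and 2.91 CPM in DTR. Its groups did not overlap, and its unadjusted p was 0.0283 by edgeR's quasi-likelihood test. Of the 9 basement membrane collagen genes, 7 were tested and 6 were below 0, from -1.11 for Col7a1, the anchoring fibril collagen, to 0.05 for Col4a4. Col7a1 was at -0.45 without Ctrl replicate 3, and Col4a4 at -0.036 without DTR replicate 3. Col4a1 and Col4a2, the chains of the main collagen IV network and named after their values were seen, were at -0.11 and -0.09, and at 0.14 and 0.15 without Ctrl replicate 1. Col4a1 was at 449, 206 and 363 CPM in Ctrl and 295, 249 and 397 CPM in DTR, with overlap.

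Of 20 other basement membrane proteins, 17 were tested, with 2 lower and 2 higher at an unadjusted p under 0.05. They ran from -1.35 for Egflam, the dystroglycan ligand pikachurin, to 1.57 for Efemp1, or fibulin 3. Egflam was at -0.53 without Ctrl replicate 3 and at -2.11 without DTR replicate 2. Efemp1 was at 41.4, 20.6 and 30.1 CPM in Ctrl and 60.0, 31.4 and 182 CPM in DTR, highest in DTR replicate 3 as the 7 members were, and its log2 fold change was 0.58 without that library. Npnt and Tinagl1, named after their values were seen, were the lower genes without overlap. Npnt, the integrin ligand nephronectin, was at 106, 127 and 123 CPM in Ctrl and 79.1, 99.8 and 78.2 CPM in DTR, a log2 fold change of -0.47 with a standard error of 0.123 (adjusted p = 0.602, edgeR's quasi-likelihood test). Tinagl1 was at 255, 325 and 309.6 CPM in Ctrl and 216, 242 and 213 CPM in DTR, at -0.41 with a standard error of 0.112.

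Of 11 receptors of laminin and agrin, 10 were tested, with 1 lower at an unadjusted p under 0.05. They ran from -0.56 for Itga3, the integrin α3 chain, to 0.77 for Bcam, a receptor of laminin α5, and Itga3 was at -0.14 without Ctrl replicate 1. The gene below that p was Dag1, also named after its values were seen, which encodes dystroglycan, the receptor that Lama2 and Agrn products bind. Dag1 was at 435, 441 and 419 CPM in Ctrl and 387, 372 and 374 CPM in DTR, so all DTR libraries were below all Ctrl libraries, as for Agrn. In this list 2 genes were lower without overlap, Dag1 and Itgb4, and 1 was higher, Itga7, against 8.18% and 6.32% of all genes tested. For Dag1 the log2 fold change was -0.19 with a standard error of 0.0758 (adjusted p = 0.604, edgeR's quasi-likelihood test). The 12 enzymes that build the laminin-binding glycan of dystroglycan had their lowest log2 fold change at -0.23, for Pomgnt2, with 0 lower and 1 higher at an unadjusted p under 0.05.

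The 12 enzymes of heparan sulfate chains, which perlecan and agrin carry, ran from -0.15 for Xylt2 to 0.91 for Sulf1, a sulfatase that edits them, which was at 0.59 without DTR replicate 3 and 1.498 without Ctrl replicate 1. Ext1, a polymerase of these chains and named because DESeq2 called it, was at 96.4, 71.9 and 80.5 CPM in Ctrl and 109.9, 130.4 and 167 CPM in DTR. All DTR libraries were above all Ctrl libraries, with DTR replicate 3 the highest. The log2 fold change was 0.71 with a standard error of 0.169, and 0.53 without that library. The adjusted p was 0.602 by edgeR's quasi-likelihood test and 0.0372 by DESeq2.

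The genes whose log2 CPM over the 6 libraries were most like the mean standardized level of the 10 members were Col4a4 (r = 0.994), Anpep (0.992), Fos (0.988), Shc2 (0.988) and Klf4 (0.987), chosen among 15123 other tested genes. In all, 243 genes had r above 0.9. Col4a4 was at 20.4, 17.5 and 17.3 CPM in Ctrl and 18.8, 17.1 and 21.4 CPM in DTR. Klf4 was at 140.5, 60.3 and 61.5 CPM in Ctrl and 108, 51.1 and 195 CPM in DTR. Both were highest in DTR replicate 3 and second highest in Ctrl replicate 1, with log2 fold changes of 0.05 and 0.43 and adjusted p-values of 0.935 and 0.829 by edgeR's quasi-likelihood test.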

How the data were processed

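RNA-seq of 3 Ctrl and 3 DTR libraries was used. The authors made stranded total RNA libraries, trimmed adapters with cutadapt 3.4, aligned to GRCm38 with STAR 2.7.3a and counted reads per gene with featureCounts 2.0.1 by strand, and deposited these raw counts, whose totals are given in the report. Beside them, the authors deposited a score (counts over their size factors, rounded) and the log2 fold changes and p-values of their own DESeq2 comparison, none of which were used.

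Of 53801 genes, 27987 lack a name in the table and 27841 of these were named from GENCODE M21. Genes were kept by edgeR's filterByExpr (minimum count 10, minimum total 15), scaled with TMM and tested by quasi-likelihood in edgeR (two-sided), adjusting by Benjamini-Hochberg over 15133 genes, with an adjusted p under 0.05 as a call. Standard errors were derived from F, as the log2 fold change divided by its square root, and intervals use 7.94 degrees of freedom. Lengths and spans come from GENCODE M21, promoters from RefSeq. Single values were compared with two-sided exact permutation tests over libraries. Versions were edgeR 4.0.16 and DESeq2 1.42.0 (in R 4.3.3), scipy 1.17.1 and matplotlib 3.10.9 (in Python 3.11.15). The steps were tested on simulated data.

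The members, lists and tests were chosen with earlier results of these data known. Genes named by rule are the members, Adam12, Pdgfra and Pdpn, the extremes of each list, genes past the threshold and the 5 genes most like the members. Npnt, Tinagl1, Dag1, Itgb4, Itga7, Ext1, Col4a1, Col4a2 and single markers of cell types (such as Dct, Vwf, Kdr, Emcn, Cldn5 and Higd1b) were named outside it, after their values were seen. The highest genes of 2 lists are not reported here. Alternatives were RLE factors or library size, all genes with at least 1 count, DESeq2's Wald test, the replicate number as a block, a loess offset on gene span, each library left out, the longest transcript as length and, for ratios, 0.5 added counts.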

Additional observations from a re-analysis of the deposited data

How the results depend on the processing

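Calls among the members stayed at 0 under all alternatives run, which were edgeR's RLE factors, library size alone, all genes with at least 1 count, DESeq2, the replicate block, the offset for gene span and each library left out in turn, with members' adjusted p-values of at least 0.450. Calls among all genes numbered 31 by DESeq2 and 0 to 2 with a library left out, the 2 coming without Ctrl replicate 1, and calls among the other basement membrane genes numbered 1 by DESeq2. The cause was not tested. With the offset for gene span, Hspg2 turned to -0.045. With a library left out, the log2 fold changes ran from -0.12 to 0.35 for Hspg2 (also -0.073 without Ctrl replicate 3), from -0.22 to 0.88 for Lamb1 and from -0.092 to 0.27 for Lamb2, and the difference in the ratio of Lamb2 to Lamb1 ran from -0.54 to 0.041. The ends on the turned side came without DTR replicate 3. The other 115 member and 41 ratio values kept their direction and their side of the threshold. The median log2 fold change of the members was 0.19 with the replicate block, 0.11 with the offset for gene span, 0.22 with RLE factors and 0.24 with library size alone. Replicate numbers are shared by the groups. Same-numbered libraries deviated together with r of 0.11, 0.13 and -0.04, and differently numbered libraries with r from -0.22 to 0.10. These values, from 3 libraries a group, cannot decide whether the numbers pair the libraries. Under the replicate block, edgeR's quasi-likelihood test gave 0 calls and an unadjusted p of 0.0463 for Agrn. With 3 libraries a group the exact permutation test cannot go below 0.1.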
